A study of Homo sapiens with 21 samples.

Results

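The genes described here mark the neural crest-like state of melanoma, a state of low pigmentation in which tumour cells carry features of the embryonic tissue that melanocytes come from. They are the neurotrophin receptors NGFR and NTRK2, the GDNF family co-receptor GFRA2, the transcription factors SOX9, SOX2 and RXRG, and the water channel AQP1. These 7 were picked by name out of 19974 protein-coding genes. A region was assigned to a member when its midpoint lay in the gene or within 50 kb of either end (hg38). Over 15 lists of enriched regions this gave 558 regions. The data are chromatin maps, so they describe open, acetylated and bound DNA around these genes and not their RNA or protein.

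Neurotrophins such as BDNF signal through tyrosine kinase receptors of the NTRK family, while NGFR, the low-affinity receptor shared by all neurotrophins, modulates that signal or acts alone. GFRA2 holds neurturin at the cell surface for the kinase RET. SOX9 and SOX2 are HMG box factors of neural crest and neural progenitors, and RXRG is a nuclear receptor of retinoid signalling. In melanoma, NGFR, AQP1, GFRA2 and RXRG are known as genes of cells that persist through treatment with MAPK inhibitors.

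The study profiled 4 melanoma lines of human origin (A375, SKMEL-147, SKMEL-5 and 501mel), with HOXD13, a homeobox factor of limb and genital patterning, silenced or overexpressed in part of the samples. ATAC-seq, which marks open chromatin, covered 501mel, SKMEL-5, SKMEL-147 and A375-GFP, 1 library each. Acetylated lysine 27 of histone H3 (K27ac), found at active promoters and enhancers, covered the same 4 plus A375 cells labelled shNTC (2 replicates), shH2 and shH3 (1 library each). CTCF, a protein of insulators and loop anchors, covered 501mel and SKMEL-5, and HA-tagged HOXD13 was mapped in A375, with 1 library in each case. A375-GFP is read as the control of the overexpression and shNTC as the non-targeting hairpin, and the labels give no target for shH2 or shH3. All cells grew for 72 h with or without 1 µg/ml doxycycline, which induces the constructs, and neither the cultures that received it nor the clonality of the lines is given in the labels. The 501mel ATAC regions carry siNTC in their names, which the label of that sample does not mention. Not analysed here were 6 further samples, 5 of them with IgG and 1 with HA in A375-GFP.

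The lists differed in length, from 56333 to 163102 regions for ATAC, 42115 to 139985 for K27ac and 39473 to 51015 for CTCF, with 29176 for HOXD13-HA. Covered length for K27ac ran from 36.8 Mb in shH2 and 46.9 Mb in 501mel to 105 Mb in A375-GFP. Read depth is unknown, and fewer listed regions and a shallower library cannot be told apart. Of 15 melanocytic genes, 12 carried K27ac at a start in 501mel, 10 in SKMEL-5, 3 in SKMEL-147 and 6 in A375-GFP. Of 15 undifferentiated or invasive genes, 1, 7, 14 and 13 did so in the same order. Of 10 keratinocyte genes 0 to 3 did, and of 9 T cell genes likewise 0 to 3. Of 10 fibroblast genes 0 to 5 did, and of 10 neuron genes 2 to 5. Of all genes, 25.1% did so in 501mel, 47.3% in SKMEL-5, 23.5% in SKMEL-147 and 54.7% in A375-GFP, so several of these counts are near or below that share. At a start here means within 2 kb of it, or of either gene end where no start was given. Values from 1 library have no replicate check. Folds below are the authors' enrichment of a region's summit over the caller's background, and they were used only within a list. Below and above a gene mean toward lower and higher coordinates.

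The promoters of SOX2, AQP1 and RXRG are shown because openness at a start separated both the lines and the members there. The SOX2 and RXRG sequences were open in 3 of the 4 lines each, and the AQP1 sequence in none. Each line gives the 250 bases before the RefSeq transcription start (GRCh38.p14), read 5′ to 3′ on the gene's strand, with the motifs searched on both strands in capitals. These were AATAAA, a form of the core that HOX factors of the HOXD13 class prefer, the SOX cores ACAAAG and AACAAT, and the TATA box TATAAA. The promoter table holds no entry used here for NGFR, SOX9 or GFRA2. It holds 4 starts of NTRK2, whose sequences, some of them with AATAAA, are not shown.
SOX2 chr3:181711675-181711924 (+ strand): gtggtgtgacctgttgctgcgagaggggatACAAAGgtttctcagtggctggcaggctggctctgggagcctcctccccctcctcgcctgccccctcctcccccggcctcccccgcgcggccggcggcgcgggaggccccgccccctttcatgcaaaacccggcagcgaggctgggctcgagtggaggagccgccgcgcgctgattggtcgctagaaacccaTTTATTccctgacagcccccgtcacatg
AQP1 chr7:30911603-30911852 (+ strand): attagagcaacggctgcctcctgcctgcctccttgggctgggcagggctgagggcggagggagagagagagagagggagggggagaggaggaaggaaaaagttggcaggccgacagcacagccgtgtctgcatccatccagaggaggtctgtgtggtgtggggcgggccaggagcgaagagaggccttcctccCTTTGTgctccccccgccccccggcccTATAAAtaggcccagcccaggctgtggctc
RXRG chr1:165445127-165445376 (- strand): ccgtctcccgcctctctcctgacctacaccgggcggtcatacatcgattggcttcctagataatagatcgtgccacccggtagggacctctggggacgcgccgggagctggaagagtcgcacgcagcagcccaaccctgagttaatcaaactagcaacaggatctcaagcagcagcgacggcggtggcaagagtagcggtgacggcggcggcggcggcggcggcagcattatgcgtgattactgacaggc
The SOX2 sequence holds ACAAAG and, on the other strand, AATAAA (read here as TTTATT). The AQP1 sequence holds ACAAAG on the other strand (CTTTGT) and a TATAAA, and the RXRG sequence holds no searched motif. Of 35116 RefSeq promoters of the same length, 16.0% hold AATAAA, 13.7% ACAAAG, 8.98% AACAAT and 10.7% TATAAA, so these matches are common. GC content was 68.8% for SOX2, 65.2% for AQP1 and 62.0% for RXRG, with 20, 8 and 24 CpG, against medians of 58.0% and 11.0 over all promoters. The SOX2 sequence overlapped ATAC regions of 501mel, SKMEL-147 and A375-GFP and a CTCF region of SKMEL-5. The RXRG sequence overlapped ATAC regions of 501mel, SKMEL-5 and A375-GFP and K27ac regions of SKMEL-5 and A375-GFP. The AQP1 sequence overlapped no region of any list.

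All 7 members had open chromatin in their windows in every line, as did 97.5% of all genes in 501mel, 95.7% in SKMEL-5, 99.0% in SKMEL-147 and 98.3% in A375-GFP. At a −log10 q of at least 10, no ATAC region was left at SOX9 in 501mel or at GFRA2 and AQP1 in SKMEL-5. SOX9 in 501mel also had none with ATAC lists cut to equal length. The acetylated members differed between the lines. With the lists as deposited, their number was below the share of all genes in 501mel and SKMEL-5 and near it in SKMEL-147 and A375-GFP. In 501mel, K27ac was listed at 1 of 7 members, RXRG, against 67.0% of all genes. In SKMEL-5 it was listed at 4 of 7 (SOX2, AQP1, RXRG and NTRK2) against 81.2%, in SKMEL-147 at 5 of 7 (NGFR, SOX9, SOX2, AQP1 and NTRK2) against 72.0%, and in A375-GFP at 6 of 7 (all but SOX9) against 84.5%. The members together held 9, 13, 10 and 68 K27ac regions in these 4 lists, with a median per member of 0, 1, 1 and 7 and a median over all genes of 2, 3, 2 and 10. The 501mel list is longer than the SKMEL-5 list, 55889 against 42115 regions, and the A375-GFP list is the longest. At a −log10 q of at least 10, K27ac was left at RXRG in 501mel, RXRG and NTRK2 in SKMEL-5, and NGFR and NTRK2 in SKMEL-147. In A375-GFP it was then left at NGFR, SOX2, GFRA2, AQP1 and RXRG. With K27ac lists cut to equal length, SOX2 and AQP1 had none in SKMEL-147, and NTRK2 had none in A375-GFP. The share of all genes was not counted at these cuts.

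**Figure D1:**
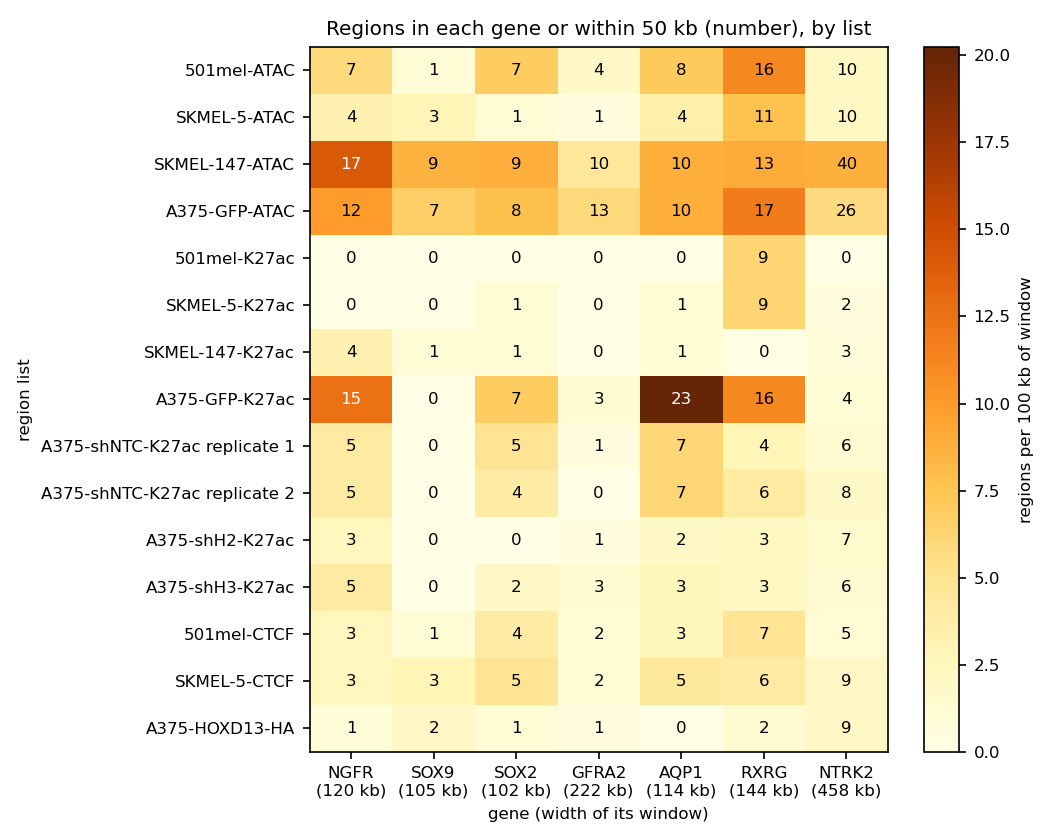
Number of regions in each gene or within 50 kb (printed) for the 7 members (columns, with the width of the window) in the 15 lists (vertical axis), shaded by regions per 100 kb of window. The 501mel K27ac list has 9 regions at RXRG and 0 at the other 6 members, while SKMEL-147 has 0 at RXRG and 4 at NGFR.

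Near a transcription start, taken as within 2 kb of it, or of either gene end for the members without a start in the table, open regions and K27ac were counted in the same way. ATAC regions lay there for 5 of 7 members in 501mel (70.1% of all genes), 4 in SKMEL-5 (62.4%), 4 in SKMEL-147 (77.2%) and 5 in A375-GFP (77.2%). NGFR and NTRK2 were open at a start or end in all 4 lines, RXRG in all but SKMEL-147, SOX2 in all but SKMEL-5, SOX9 in all but 501mel, GFRA2 in 501mel only and AQP1 in none. K27ac lay there for 0 of 7 members in 501mel (25.1% of all genes) and 0 in SKMEL-147 (23.5%). SKMEL-5 had it at SOX2 and RXRG, 2 of 7 (47.3%), and A375-GFP at NGFR, SOX2, AQP1 and RXRG, 4 of 7 (54.7%). The shNTC replicates had it at NGFR and SOX2, 2 of 7 each (58.3% and 56.9%), shH3 at the same 2 (52.7%) and shH2 at NGFR alone (41.9%). At NGFR, for which no start was given, this K27ac lay at the upper end in each of these lists. No list held K27ac within 2 kb of the lower end of NGFR.

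RXRG, the gamma form of the retinoid X receptor, held the highest K27ac fold of any member in the 501mel, SKMEL-5 and A375-GFP lists and no K27ac region in SKMEL-147. The gene runs from 165400922 to 165445126 of chromosome 1 on the minus strand, and the acetylated stretch lay upstream of its start, on the side away from the neighbouring LMX1A, whose nearer end is 44207 bp from RXRG. In SKMEL-5 a single K27ac region from 165465615 to 165471095 had a fold of 63.3, rank 144 of 42115 in its list. In 501mel the region from 165468379 to 165471115 had a fold of 14.1, rank 859 of 55889. In A375-GFP there were 2 neighbouring regions with folds of 18.8 and 24.3. The same stretch was thus acetylated in all 3 lines.
In SKMEL-147 no K27ac region was listed anywhere in the RXRG window, where 11 to 17 ATAC regions were listed in the 4 lines and 13 in SKMEL-147 itself. Within the stretch, an ATAC region, from 165467414 to 165468415 in 501mel, had folds of 16.6 in 501mel, 17.4 in SKMEL-5 and 12.3 in A375-GFP, and 3.68 in SKMEL-147. CTCF lay at that same place in both lines tested, with folds of 24.5 in 501mel and 29.4 in SKMEL-5. At the RXRG start itself, K27ac had a fold of 11.2 in SKMEL-5 and 5.25 in A375-GFP and was not listed in 501mel, although the start was open there with an ATAC fold of 11.5. The A375 lists of shNTC, shH2 and shH3 also held no K27ac within 2 kb of this start. Open chromatin at the RXRG start and acetylation there thus came apart in 501mel.

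NGFR, the low-affinity neurotrophin receptor used as a surface marker of the neural crest-like state, had K27ac in SKMEL-147, where RXRG had none, and in A375, where both had it. No K27ac region lay in its window in 501mel or SKMEL-5, although 7 and 4 ATAC regions did. SKMEL-147 had 4 K27ac regions, all on the lower-coordinate side of the gene between 49450555 and 49456742 of chromosome 17, with a highest fold of 10.0. A375-GFP had a region from 49450520 to 49457787 over the same stretch with a fold of 11.8. In the shNTC replicates the stretch had folds of 17.7 and 14.4. The A375-GFP region had its midpoint 41140 bp outside the gene, and the window holds no other protein-coding gene.
Another acetylated place lay at the upper end of the NGFR gene (49495293 to 49515008) and was listed in A375 alone. It had a fold of 19.9 in A375-GFP, from 49514044 to 49516526, the highest of the member in that list. This upper end was open in all 4 lines, with ATAC folds of 8.28 in 501mel, 7.79 in SKMEL-5, 16.5 in SKMEL-147 and 11.8 in A375-GFP. Open chromatin without K27ac was therefore listed there in 3 lines.

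**Figure D2:**
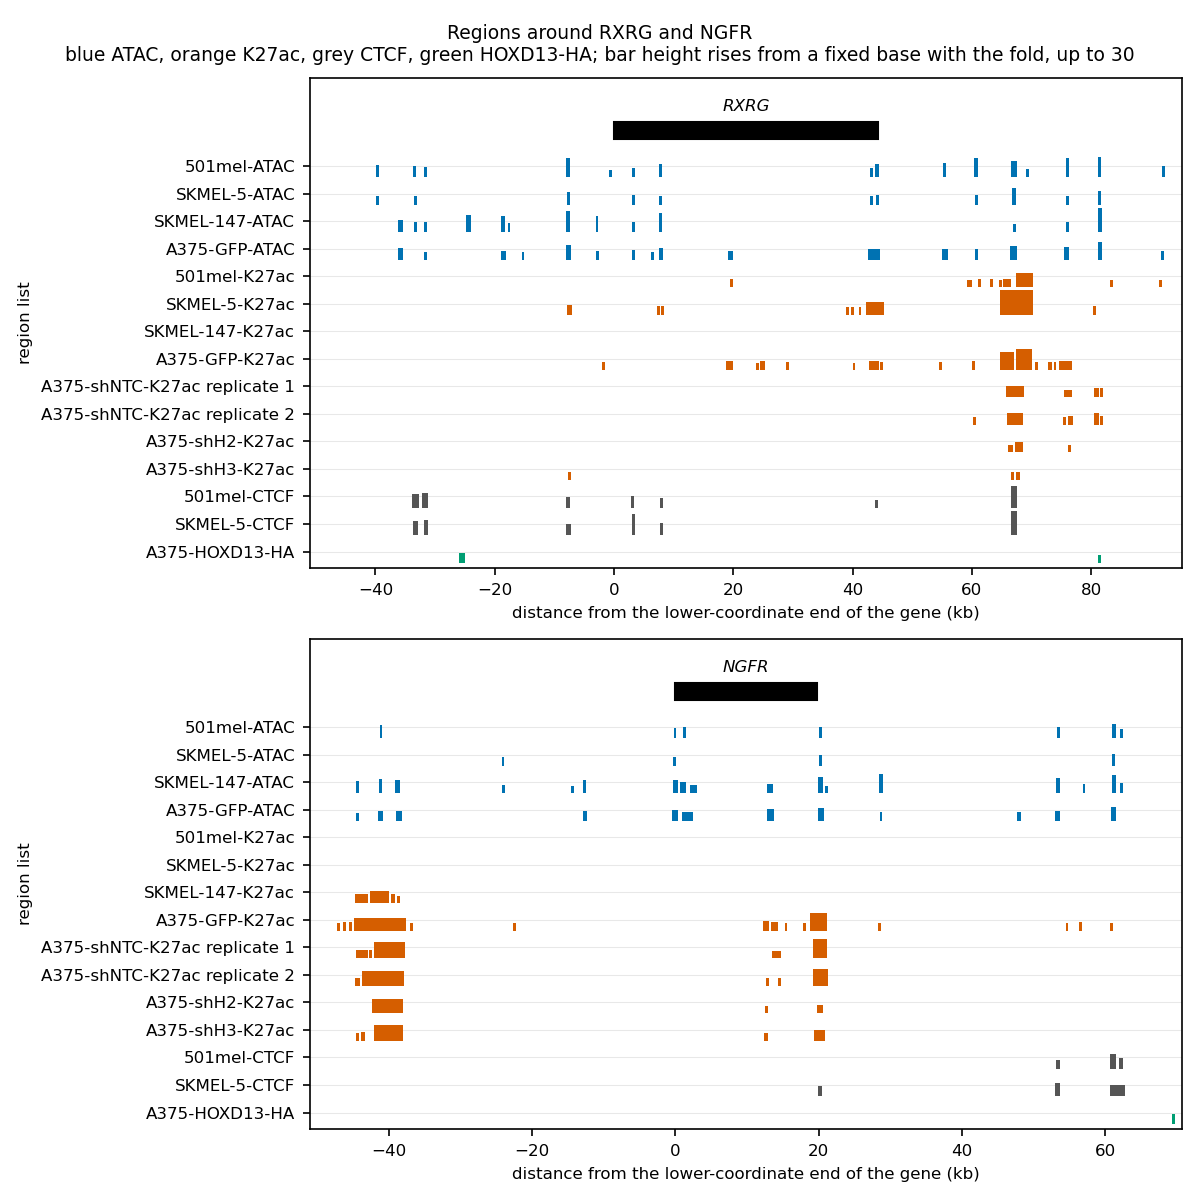
Regions around RXRG (top) and NGFR (bottom) in the 15 lists (vertical axis), by distance from the lower-coordinate end of the gene in kb. Bar height rises with the fold from a fixed base, up to a fold of 30, and narrow regions are widened to be visible. The stretch beyond RXRG has K27ac in 501mel, SKMEL-5 and A375 and none in SKMEL-147, and the stretch below NGFR has K27ac in SKMEL-147 and A375 and none in 501mel and SKMEL-5.

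NTRK2, the receptor kinase for BDNF, is the longest member (84668522 to 85027054 of chromosome 9, window 458.5 kb) and held 10 ATAC regions in 501mel, 10 in SKMEL-5, 40 in SKMEL-147 and 26 in A375-GFP, the most of any member in the last pair of lines. With ATAC lists cut to equal length, NTRK2 held 7, 10, 11 and 12 in the same order. In the full SKMEL-147 list, where NGFR had 14.2 ATAC regions per 100 kb of window, NTRK2 had 8.72. In A375-GFP it had 5.67 per 100 kb, the lowest of all members. Its main acetylated place lay inside the gene, from 84710421 to 84713512 in SKMEL-5. K27ac there had a fold of 21.8 in SKMEL-5, 8.41 in SKMEL-147 and 2.83 in A375-GFP, and 8.72 and 8.53 in the shNTC replicates. In 501mel it was open, with an ATAC fold of 16.0, and not acetylated.
A region of the gene from 84989422 to 84991576 was acetylated in SKMEL-5 (fold 8.30) and in A375, and a region from 84735731 to 84737179 in SKMEL-147 (fold 4.56) and in both shNTC replicates. The lower-coordinate end of NTRK2 was open in all 4 lines, with ATAC folds of 18.1 in 501mel, 8.49 in SKMEL-5, 24.6 in SKMEL-147 and 9.59 in A375-GFP, and carried no K27ac in any list.

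**Figure D3:**
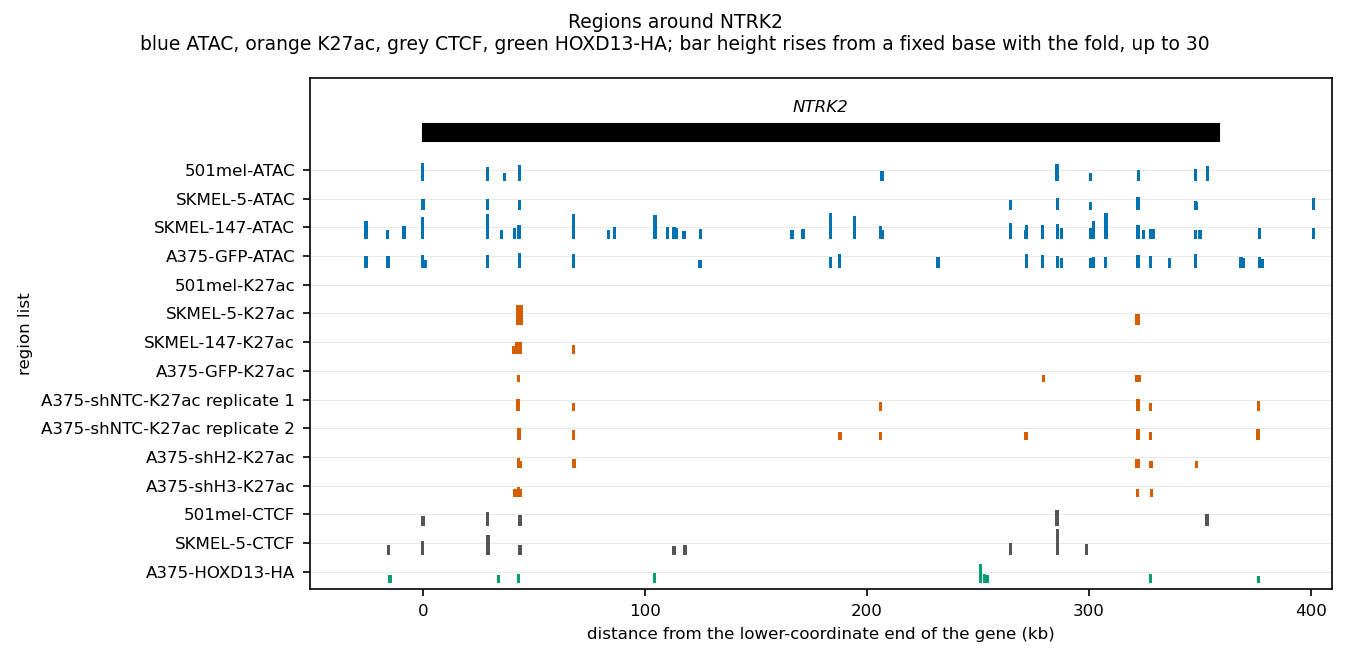
Regions around NTRK2 in the 15 lists (vertical axis), by distance from the lower-coordinate end of the gene in kb. Bar height rises with the fold from a fixed base, up to a fold of 30, and narrow regions are widened to be visible. SKMEL-147, the longest ATAC list, has 40 ATAC regions. The tallest HOXD13-HA bar (fold 20.5) stands where no other list has a region, and no ATAC or K27ac list carries HOXD13-HA in its label.

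GFRA2, the neurturin co-receptor (21690398 to 21812345 of chromosome 8), had K27ac only in A375 cells among the lines, with 3 regions and a highest fold of 5.93 in A375-GFP. It was open at 4 places in 501mel, 1 in SKMEL-5, 10 in SKMEL-147 and 13 in A375-GFP. With ATAC lists cut to equal length, GFRA2 had 1, 1, 2 and 5 in the same order. Its highest ATAC folds were 12.8 in 501mel, 4.10 in SKMEL-5, 18.3 in SKMEL-147 and 13.3 in A375-GFP, the last pair at the same place inside the gene, from 21756578 to 21757369 in A375-GFP.

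SOX9, a factor of neural crest and of cartilage (72121020 to 72126416 of chromosome 17), had no K27ac region in its window in any A375, 501mel or SKMEL-5 library. Its only K27ac region was in SKMEL-147, from 72151563 to 72151867, with a fold of 3.87, rank 38335 of 58855. The same place, 25299 bp beyond the gene, was open in all 4 lines, with ATAC folds of 5.13 in 501mel, 7.35 in SKMEL-5, 23.1 in SKMEL-147 and 8.82 in A375-GFP. At the gene itself, ATAC folds were 13.8 in SKMEL-5, 16.9 in SKMEL-147 and at most 4.65 in A375-GFP. The 501mel list held no ATAC region there. SOX9 was thus open and largely without K27ac within 50 kb, and regions farther out were not assigned to it, although its nearest protein-coding gene lies 519533 bp away.

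SOX2, a factor of neural stem cells (181711925 to 181714436 of chromosome 3, plus strand), was acetylated over its body in A375 and SKMEL-5. The fold was 9.47 in A375-GFP and 4.37 in SKMEL-5. SKMEL-147 had a lone K27ac region of fold 3.24 below the gene, and 501mel had none. The most open place of the window lay above the gene, from 181752115 to 181752846 in A375-GFP, with ATAC folds of 19.3 in SKMEL-5, 27.6 in SKMEL-147 and 18.4 in A375-GFP. It ranked 711 of 104442 by fold in the 501mel list and 146 of 56333 in SKMEL-5, where it was the only ATAC region of the SOX2 window. CTCF lay there too, with folds of 23.4 in 501mel and 9.52 in SKMEL-5, and no K27ac list held it.

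AQP1, a water channel of endothelium and kidney (30911853 to 30925516 of chromosome 7, plus strand), had 23 K27ac regions in A375-GFP, the most of any member in any K27ac list, with folds of at most 6.74. With lists cut to equal length, A375-GFP had 3 at AQP1, 7 at RXRG and 5 at NGFR. The window also holds parts of MINDY4 and GHRHR, and regions were not divided among these genes. SKMEL-5 and SKMEL-147 had 1 K27ac region each, with folds of 3.93 and 2.87, and 501mel had none. Inside the gene, the place from 30914424 to 30915495 was open in A375-GFP (fold 9.46) and SKMEL-147 (fold 21.6) and acetylated in A375 only. A place above the gene, from 30938485 to 30939015 in A375-GFP and 26897 bp from the start, was open in all 4 lines, with folds of 13.7, 7.77, 15.5 and 12.3 in 501mel, SKMEL-5, SKMEL-147 and A375-GFP.

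**Figure D4:**
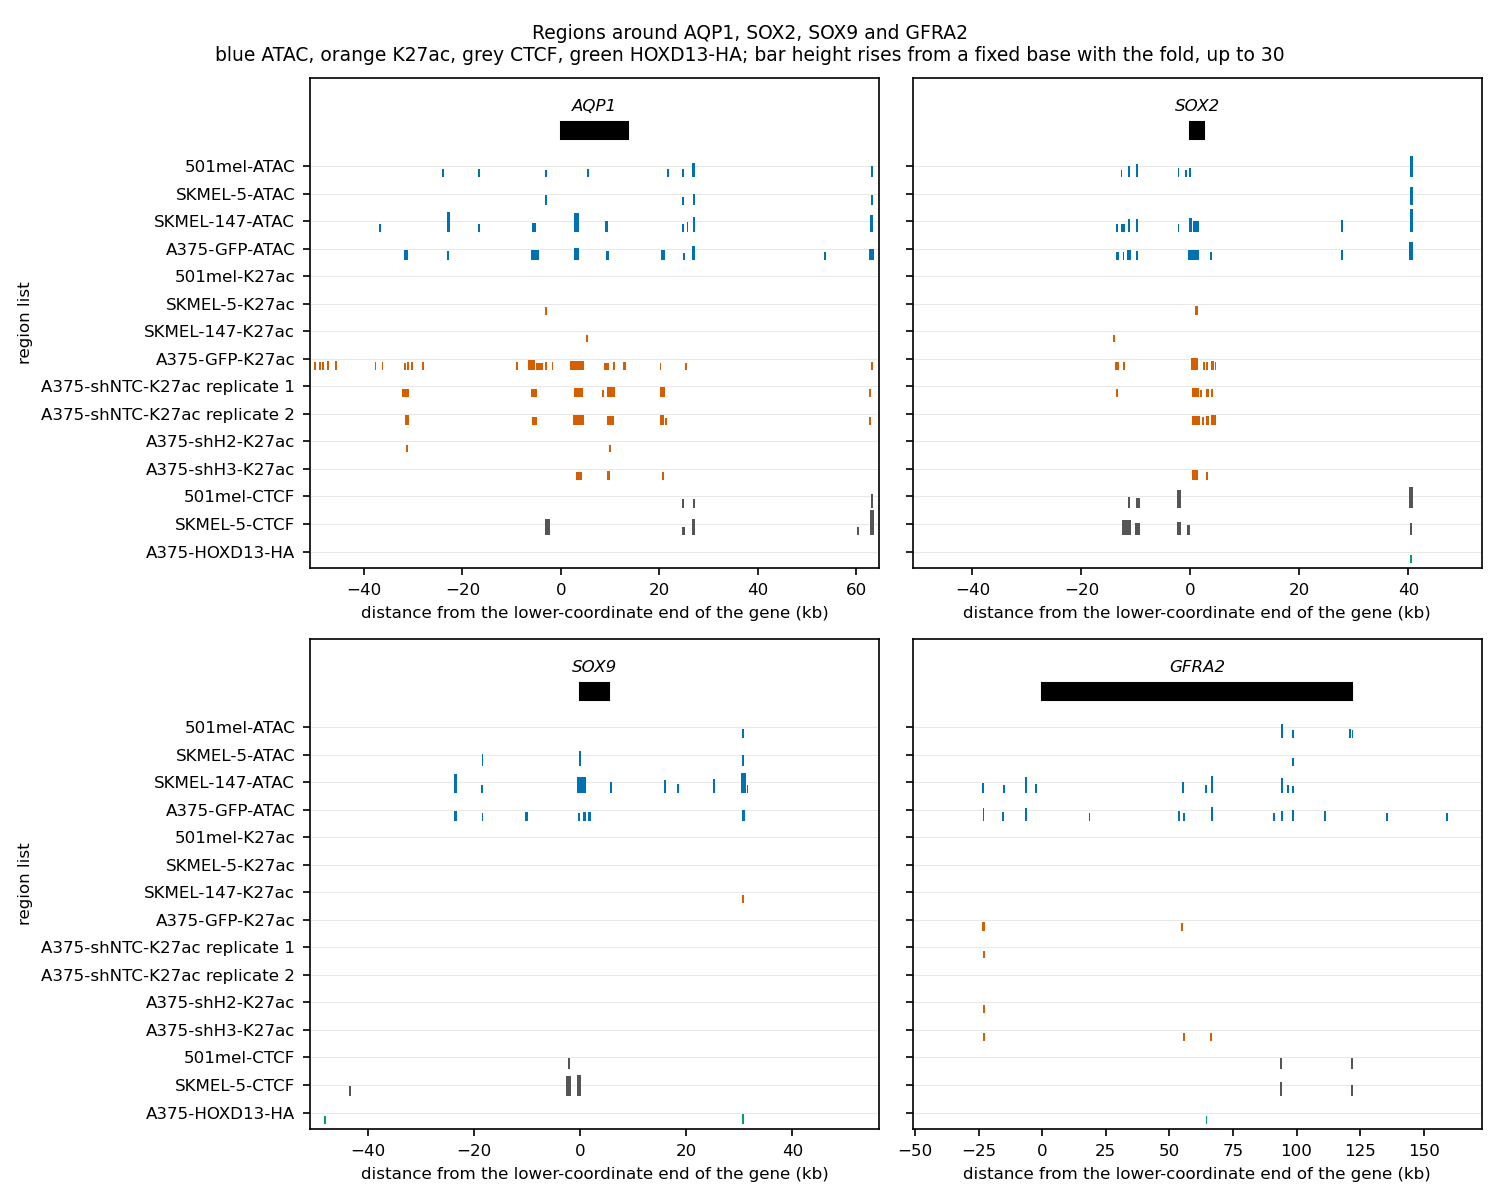
Regions around AQP1, SOX2, SOX9 and GFRA2 in the 15 lists (vertical axis), by distance from the lower-coordinate end of each gene in kb. Bar height rises with the fold from a fixed base, up to a fold of 30, and narrow regions are widened to be visible. SOX9 has 1 K27ac region in all lists, in SKMEL-147, and the open place above the SOX2 gene is in all 4 ATAC lists.

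Merged over the 4 lines, the members had 144 open sites, of which 22 (15.3%) were listed in all 4 lines, near the 14.7% of all 228532 sites. Sites in a single line made up 65 (45.1%) against 51.9%. Sites shared by SKMEL-147 and A375-GFP alone numbered 32 (22.2%) against 13.1% of all sites, and those shared by 501mel and SKMEL-5 alone 2 (1.39%) against 1.46%. NTRK2 gave 12 of the 32, and NGFR, GFRA2, AQP1, RXRG, SOX2 and SOX9 gave 5, 5, 4, 3, 2 and 1. Acetylation was shared less widely: of 80 K27ac sites, 0 were in all 4 lines (2.89% of all sites), 70 (87.5%) were in 1 line (74.9%), and 55 of these 70 were in A375-GFP, the longest of the lists, against 58.7% of all sites in 1 line. SKMEL-147 and A375-GFP alone shared 1 (6.44% of all sites), and 501mel and SKMEL-5 alone shared 0 (2.10%).
Open regions at the members were also acetylated in the same line in 2 of 53 cases in 501mel (3.77%, 95% Wilson interval 1.04 to 12.8, all regions 18.5%), both at RXRG. The counts were 8 of 34 in SKMEL-5 (23.5%, 12.4 to 40.0, all regions 41.3%), 7 of 108 in SKMEL-147 (6.48%, 3.17 to 12.8, all regions 19.1%) and 26 of 93 in A375-GFP (28.0%, 19.9 to 37.8, all regions 37.3%). In each line the share at the members was below that of all open regions, and in A375-GFP the interval holds the value of all regions. The intervals cover counting error only, and regions of 1 gene are not independent.

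HOXD13-HA regions lay at 6 of 7 members, all but AQP1, against 60.2% of all genes, and within 2 kb of a start or end at 1, NTRK2, against 6.57%. The windows are of unequal width, and NTRK2, with the widest, held 9 of the 16 regions. At a −log10 q of at least 10, NTRK2 held 4, and by nearest gene SOX9 held 17, NTRK2 14 and SOX2 9, so which member had the most depended on how regions were assigned. With windows of 10 kb the count was 2 of 7, GFRA2 and NTRK2, and by nearest gene it was 5 of 7, all but NGFR and AQP1. Within NTRK2, the region from 84919244 to 84920144 had a fold of 20.5 and a −log10 q of 108, rank 11 by fold of all 29176 HOXD13-HA regions. It lay in the gene, 218089 bp from the nearest start, and overlapped no region of the other 14 lists. It was thus neither listed as open nor acetylated in any line. No ATAC or K27ac library carries HOXD13-HA in its label, so openness and acetylation in the cells used for HOXD13-HA are unknown. The HA library of A375-GFP was not analysed. Another 2 regions next to the region of fold 20.5, from 84921252 (fold 4.77) and from 84922629 (fold 4.19), were likewise in no other list. The region within 2 kb of a start, from 84702419 to 84702606, had a fold of 3.23 and was also listed in HOXD13-HA alone.
The NTRK2 region from 84711324 to 84711708, with a fold of 5.44, lay instead in the acetylated place described above and overlapped 11 other lists. NTRK2 regions from 84772544 (fold 7.54) and 84995917 (fold 6.06) were open in SKMEL-147, and the latter also in A375-GFP. HOXD13-HA regions of NTRK2 thus ranged from a place in 11 other lists to places in none.
At the other members, RXRG had a HOXD13-HA region of fold 6.97 below the gene, in no other list, and another of fold 2.64 from 165482180 to 165482456, open in all 4 lines. NGFR had 1 of fold 6.47 at 49804 bp above the gene, close to the edge of the window and not assigned to NGFR by nearest gene. SOX9 had 1 of fold 6.41 from 72151581 to 72151989, in the place open in all 4 lines and acetylated in SKMEL-147, and 1 of fold 3.39 below the gene. SOX2 had 1 of fold 3.86 from 181752154 to 181752569, within the CTCF-bound open place, and GFRA2 1 of fold 3.71 inside the gene. The median fold of the HOXD13-HA list was 3.93, above the values at SOX2 and GFRA2 and below the highest value at the other 4.
Of the 16 regions, 6 overlapped A375-GFP ATAC (34.1% of all HOXD13-HA regions), 8 SKMEL-147 ATAC (33.3%), 4 each 501mel and SKMEL-5 ATAC (15.6% and 10.3%), and 1 A375-GFP K27ac (22.2%). With the shNTC K27ac replicates the overlap was 4 each (28.0% and 26.9%), with shH2 2 (15.7%) and with shH3 2 (19.6%). The K27ac lists of SKMEL-147, SKMEL-5 and 501mel overlapped 2, 1 and 0 (16.0%, 10.7% and 7.06%), and CTCF overlapped 1 in 501mel (4.85%) and 1 in SKMEL-5 (5.22%), at SOX2 in both.

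In the silencing series, the share of K27ac regions lost at the members was close to that over the genome, and no region was gained within the windows. K27ac was listed in the windows of 6 and 5 of 7 members in the shNTC replicates (88.9% and 88.7% of all genes), 5 in shH2 (79.9%) and 6 in shH3 (85.2%), and the number of regions was 28, 30, 16 and 22. Both replicates shared 22 merged regions, of which 8 were in neither hairpin library (36.4%, 95% Wilson interval 19.7 to 57.0), against 24220 of 65337 over the genome (37.1%). Another 7 were kept in both, 3 in shH2 only and 4 in shH3 only. Of the 11 merged regions listed with both hairpins at the members, 0 were gained, that is absent from both replicates, against 1.85% of all 31235. By nearest gene, which also takes in regions farther out, 5 of 33 were gained, and with lists of equal length 1 of 7, against 6.48% of all regions. The hairpin lists were shorter, 43634 and 51838 regions against 85977 and 80242, and a lost region and one under the caller's limit in a shallower library cannot be told apart.
By gene, 5 of 7 members had a lost region, against 70.7% of all genes, and 0 had a gained one, against 2.99%. NGFR and SOX2 each lost 1 of 3 shared regions, AQP1 2 of 6, RXRG 2 of 4 and NTRK2 2 of 6. SOX9 and GFRA2 had no shared region to lose. With shortened lists, cut to the 42115 regions of highest −log10 q each, the lost share was 27.3% at the members and 16.0% over all regions. NGFR and SOX2 then had no lost region, which left 3 of 7 members with one against 36.8% of all genes, and the same 3 had one at a −log10 q of at least 10, against 47.8%.

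The strong NGFR stretch was kept. From 49450553 to 49457571 its folds were 17.7 and 14.4 in the shNTC replicates, 14.7 in shH2 and 16.2 in shH3. At the upper end of NGFR, folds were 21.0 and 17.6 in the replicates, 4.99 in shH2 and 8.21 in shH3. The read depth of the lists is unknown, so these folds are given side by side and not compared. The remaining shared region of NGFR, from 49508837 to 49510020 inside the gene with folds of 3.28 and 3.37, was in neither hairpin list.
RXRG kept its upstream stretch, from 165466619 to 165469590, with folds of 8.66 and 9.80 in the replicates, 8.45 in shH2 and 4.61 in shH3. It lost a pair of regions farther out, 36651 and 37541 bp upstream of the start. The first of these, from 165481340 to 165482215, had folds of 6.24 and 9.65 and overlapped the HOXD13-HA region of fold 2.64 described above. A region between the kept stretch and this pair, from 165476332 to 165477796, was listed in shH2 and not in shH3.
SOX2 was listed differently in the 2 hairpin libraries. The region over its body, from 181712143 to 181713654, had folds of 6.10 and 5.88 in the replicates and 7.05 in shH3, and was not listed in shH2. No K27ac region of the SOX2 window was listed in shH2 at all, against 2 in shH3 and 5 and 4 in the replicates. The region from 181715617 to 181716536 was in neither hairpin list.
NTRK2 kept its main acetylated place, from 84710403 to 84712545, with folds of 8.72 and 8.53 in the replicates, 7.67 in shH2 and 6.81 in shH3, and this place carries a HOXD13-HA region. It lost the region from 85044078 to 85045345 beyond the gene, with folds of 6.65 and 7.14. This lost region overlaps HOXD13-HA as well, at a region of fold 2.83, rank 25830 of 29176. NTRK2 also lost a weaker K27ac region from 84874451 to 84874808 inside the gene. A weak region from 84996188 to 84996625, also overlapping HOXD13-HA, was kept with folds of 2.79 to 3.14. HOXD13-HA regions thus overlapped 2 of the 8 lost regions, against 5.78% of all lost regions, and 2 of the 7 kept in both, against 16.0% of all such regions. With counts this small the difference from these shares was not tested. The overlapping HOXD13-HA regions had folds of 2.64 and 2.83 at the lost regions and 5.44 and 6.06 at the kept ones.
AQP1 kept 1 of its 6 regions in both hairpins, inside the gene, with folds of 6.93 and 6.02 in the replicates, 3.23 in shH2 and 4.73 in shH3. It lost those from 30905779 to 30906985 and from 30974395 to 30974900. Its strongest region, from 30931932 to 30933028, with folds of 8.17 and 7.28, was listed in shH3 (4.06) and not in shH2. Of the 8 lost regions of all members, 7 were open in A375-GFP, against 42.5% of all lost regions, and so were all 7 kept in both, against 96.4%. The K27ac list of A375-GFP, a separate A375 library, held 3 of the 8 lost (52.9% of all lost regions) and 6 of the 7 kept (88.9%). Thus 5 of the 8 lost regions were also absent from another A375 list with no hairpin in its label.
GFRA2 had a K27ac region below the gene in shNTC replicate 1 (fold 2.94), shH2 (3.85) and shH3 (4.09) and none in replicate 2. The shH3 list held 2 further GFRA2 regions, inside the gene, with folds of 4.35 and 4.09. They were not in shH2, so they are not counted as gained, and without replicate 1 the region below the gene would be.

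**Figure D5:**
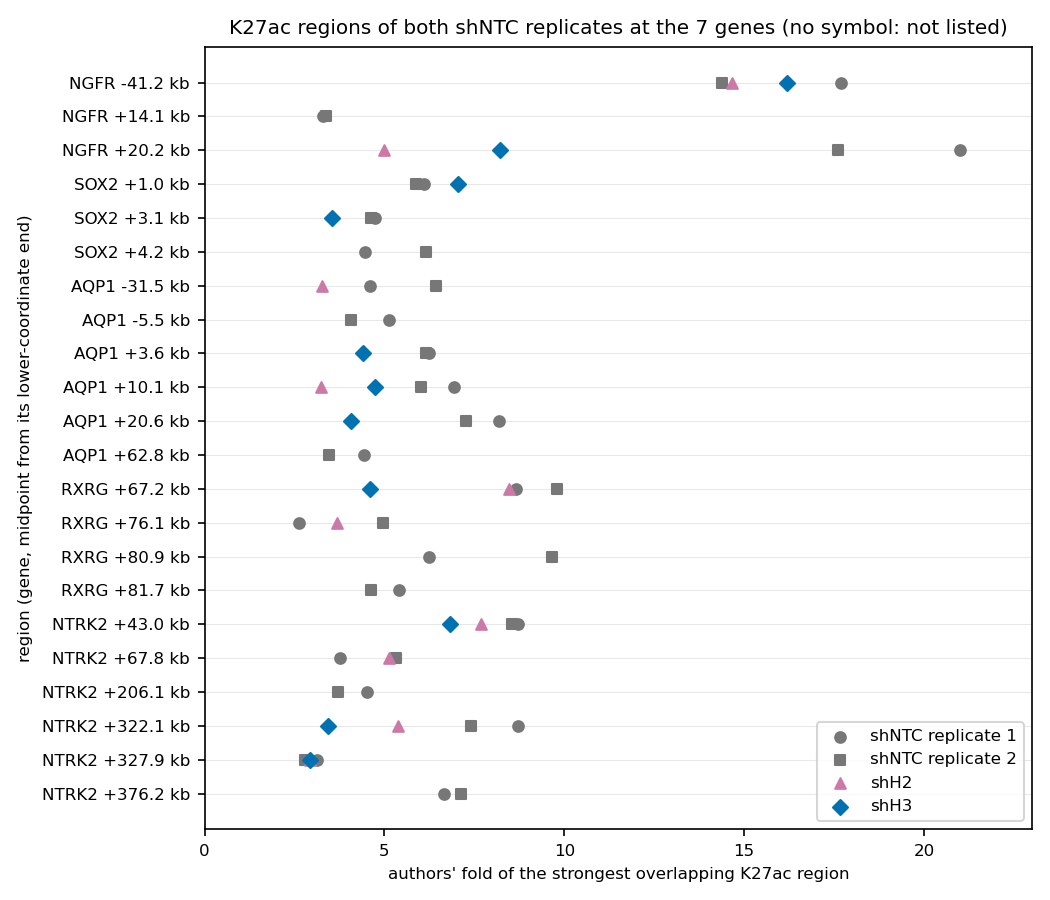
Fold of the strongest overlapping region in each shNTC replicate, shH2 and shH3 (horizontal axis) for the 22 K27ac regions that both shNTC replicates share at the members (vertical axis, named by gene and distance in kb from its lower-coordinate end). A missing symbol means that the list held no region. The 8 lost regions have shNTC folds of at most 9.65, and the NGFR stretch is listed in all 4 libraries.

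CTCF regions lay at all 7 members in 501mel and SKMEL-5 (88.9% and 93.5% of all genes), with 25 and 33 regions. Near a start they lay at 3 and 5 of 7 members (36.8% and 43.1%). Merged, these gave 35 sites, of which 22 were in both lines (62.9%, 95% Wilson interval 46.3 to 76.8), against 49.3% of all 60031 sites, which lies inside the interval. A further 11 were listed in SKMEL-5 only, whose list is longer, and 2 in 501mel only. RXRG shared 6 of 7 sites, SOX2 4 of 5, GFRA2 2 of 2, AQP1 3 of 5, NGFR 2 of 3, NTRK2 4 of 10 and SOX9 1 of 3. At the SOX9 gene, SKMEL-5 alone had a CTCF region over the lower end, with a fold of 24.2, while both lines had a region just below it, with folds of 8.54 in 501mel and 22.5 in SKMEL-5.

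Other genes of the same pathways were read from lists made with earlier results known. Of 20 further neurotrophin and GDNF family genes, 15 had a HOXD13-HA region in the window, against 60.2% of all genes, among them SORT1 (highest fold 7.88), NTF3 (6.78) and LINGO1 (6.54). Of 19 neural crest transcription factors 12 did, among them SOX10 (7.14), MSX1 (6.48) and TFAP2B (6.32). Of 9 RXR, RAR and SOX relatives 3 did, SOX21 (4.67), RARB (4.51) and RXRA (4.14), and of 16 Schwann cell and surface genes 10 did, led by CDH19 (6.92) and CADM1 (6.33). None of these reached the NTRK2 region, whose fold of 20.5 was above that of any gene in the 10 lists, the next being WNT5A (16.1).
K27ac at a start, or at a gene end where no start was given, was listed for 9 of the 19 neural crest transcription factors in 501mel. The counts were 10 in SKMEL-5, 10 in SKMEL-147 and 14 in A375-GFP. The 7 members had 0, 2, 0 and 4 in the same order, with NGFR counted in A375-GFP by its upper end. For the 16 Schwann cell and surface genes the counts were 5, 8, 3 and 11, for the 20 neurotrophin and GDNF family genes 4, 4, 4 and 8, and for the 9 RXR, RAR and SOX relatives 2, 3, 4 and 5. Of all genes, 25.1%, 47.3%, 23.5% and 54.7% had such K27ac in the same order. The pattern of regions at a start or gene end was compared over the 12 ATAC and K27ac lists. It was matched in all 12 for NGFR by CD3E and MSX1, among others, for SOX9 by SOX21 and for GFRA2 by CD2 and SOX14. The same held for AQP1 with THY1 and for NTRK2 with CD8A, GFRA1 and LINGO1. SOX2 was most like CADM1, CCN2 and FOXD3, in 11 of 12, and RXRG most like COL1A1, DCT and ELAVL4, in 10 of 12. The lists share lines, so these matches are descriptions of presence and absence.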

How the data were processed

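The deposited data were 15 lists of enriched regions, 1 for each library. The tools named in the submitters' processing notes are MACS2, Bowtie2, Trim Galore, deepTools and SAMtools, with hg38 as the build, and versions, settings and control libraries are not given in the sources used here. Each list gives a score, the fold enrichment of the summit (a ratio) and the −log10 p and −log10 q of the region, all computed by the authors. The deposited lists hold no read counts, so depth is unknown, and the lowest −log10 q of each list was about 1.30. The labels do not tell ChIP-seq from CUT&Tag libraries.

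Regions on the autosomes and X were kept and joined with Python 3.11.15 and pandas 2.3.3 (numpy 2.4.6, scipy 1.17.1, matplotlib 3.10.9) to the RefSeq gene table of GRCh38.p14. Windows were the gene and 50 kb on both sides, read by midpoint. Starts came from the RefSeq promoter table, which held 15813 of 19974 genes and 4 of 7 members, and both gene ends stood in for the rest. Regions were shared at an overlap of 1 bp. Lost meant listed in both shNTC replicates and in neither hairpin library, and gained meant the reverse. The labels do not say whether the replicates are separate cultures. Shares carry 95% Wilson intervals, which cover counting error only. With 1 library in every group but shNTC and no read counts, no test between groups was made, and counts stand beside those of all genes or regions. The counting scripts were tested on simulated data.

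The members and the 10 lists of other genes (132 genes, of which 131 matched) were chosen with earlier results of these data known. All members were named. Regions were named when they were highest in a list, lay at a gene end, were lost or gained, or were found in a single line and among the top 3 of a member by fold. A few others were added after their values were seen. Other genes were named by the highest folds of their list, up to 4, and by the most alike patterns of regions at a start, up to 3. A few genes that this rule names are not reported here. Alternatives were windows of 10 and 100 kb, the nearest gene, a −log10 q of at least 10, lists of equal length, an overlap of 50%, other distances to a start, and leaving out each shNTC replicate.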

Additional observations from a re-analysis of the deposited data

How the results depend on the processing

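With windows of 10 kb, members with a HOXD13-HA region numbered 2 in place of 6. Gained K27ac regions at the members, 0 above, numbered 5 of 33 by nearest gene (at GFRA2, NTRK2 and SOX9), 1 of 7 with lists of equal length (at GFRA2; 6.48% of all regions), also with windows of 100 kb (chosen after seeing the data), and 1 to 2 without replicate 1 or 2 of shNTC. The lost share was 36.4% and, with the alternatives, 26.1% at the lowest (nearest gene; 37.1% of all regions) and 4 of 8 regions at the highest (−log10 q of at least 10; 32.2%), and 42.9 to 46.7% without a shNTC replicate, where that of all regions was 45.5 to 48.4%. At a −log10 q of at least 10, members with ATAC near a start numbered 3 in 501mel (5 above) and 2 in SKMEL-5 (4), and members with K27ac 0 in shH2 (1), 1 in each shNTC replicate (2) and 1 in SKMEL-5 (2). ATAC also gave 3 in 501mel with lists of equal length, and K27ac 1 in SKMEL-5 within 1 kb of a start. The cause of these shifts was not tested. The other 85 values of the main counts and shares stayed within 1.5 times or inside their interval. Counts of HOXD13-HA regions and of lost K27ac regions for single members were kept apart. Of these, 41 values moved beyond 1.5 times and 50 did not. Lost regions at NGFR, 1 above, numbered 5 with windows of 100 kb and 0 under the stricter q limit. With windows of 10 kb, RXRG had 0 lost regions (2 above) and NGFR 0 HOXD13-HA regions (1 above). Window counts of ATAC and K27ac regions by member are in neither set of values. No paired analysis was possible because the hairpin, ATAC, CTCF and HOXD13-HA groups hold 1 library each and no test compares groups. Depth is unknown, so an unlisted region is not evidence of missing signal.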
